A study of Homo sapiens with 22 samples.

Results

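MDA-MB-231 cells in which a METTL3 knockdown had been followed by add-back of METTL3-WT were compared with cells labelled B5. The line is an established one from human breast cancer and has mesenchymal features. The comparison asks what still differs from B5 once METTL3 is present again. It rests on 4 of the 22 RNA-seq libraries of the series: 2 labelled B5 and 2 labelled shM3 with METTL3-WT added back (shM3_WT). Of the 60669 genes in the table, the 14637 at 1 FPKM or more in at least 2 of its 8 libraries were tested (FPKM corrects fragment numbers for how long a gene is and how deeply a library was sequenced). The other 4 libraries of the table, 2 of shM3 and 2 of shM3 with METTL3-CD added back (shM3_CD), entered the fit, and their levels stand beside the results. All cells of the table were kept for 2 to 3 months, carry the genotype label WT, and were grown in DMEM with serum. Lentivirus is named in the protocols, but the labels do not say what B5 or CD stands for, whether B5 carries a control vector, which shRNA was used, whether a line is 1 clone, or what promoter drives the add-back. Whether both libraries of a group are separate cultures is not said either. A p-value then measures only the spread between libraries, which may be technical.

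METTL3 is the catalytic subunit of the nuclear complex that writes N6-methyladenosine (m6A) on RNA, a mark that reader proteins use to change the splicing, translation and decay of the RNA. METTL14 is its partner in the catalytic core, and WTAP anchors the core to other subunits. Among the RNAs known to carry m6A are those of cell cycle regulators, signalling factors and innate immune genes.

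METTL3 (ENSG00000165819, hg38 chr14:21498133-21511375, minus strand) showed the add-back directly. It stood at 20.1 and 23.8 FPKM in B5 and 312 and 311 in shM3_WT. The shM3 libraries held 4.39 and 4.80 FPKM, and those of shM3_CD 277 and 270.5 FPKM. Both add-back libraries lay far above both B5 libraries, 14.2-fold on the means (log2 difference 3.77, SE 0.09, adjusted p = 2.6e-06). Reads of the added METTL3 and of the cell's own gene cannot be told apart in these values, so the comparison sets cells with much more METTL3 RNA against B5, not cells at an equal level. Every adjusted p here and below comes from limma with Benjamini-Hochberg adjustment over all genes tested, and a gene is called at an adjusted p under 0.05. Differences are in log2(FPKM + 1), which understates the change of low genes. METTL14 stood at 8.31 and 10.1 FPKM in B5 and 7.10 and 4.91 in shM3_WT (log2 difference -0.55, SE 0.16, adjusted p = 0.042), and WTAP at 26.8 and 27.02 FPKM in B5 and 22.6 and 19.6 in shM3_WT (log2 difference -0.34, SE 0.10, adjusted p = 0.041). Both calls were lost under most other settings: with TMM factors the adjusted p was 0.0725 for METTL14 and 0.118 for WTAP, and without shM3_WT replicate 2 it was 0.182 and 0.192. Of the 7 writer genes tested, METTL3 alone was called higher and METTL14 and WTAP lower as deposited, and METTL3 alone was called with TMM factors or equal medians.

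In all, 4385 of the 14637 genes were called (30.0%), 1726 higher (11.8%) and 2659 lower (18.2%) in shM3_WT. Counts called in the gene lists below are to be read beside these shares of 11.8% and 18.2%. At a further limit of 2-fold, 178 were higher (1.22%) and 596 lower (4.07%). The split between the directions depends on the scaling. As deposited, 39.4% of the calls were higher, against 54.3% with TMM factors (2466 higher, 2073 lower) and 56.5% with equal medians (2614 and 2014). The median gene stood at -0.07 as deposited, and these scalings moved it up by 0.09 and 0.10. Each gene was tested against 0, not against the median of -0.07, so calls on small differences can depend on the scaling. Without shM3_WT replicate 1 the count was 2746, and without shM3_WT replicate 2 it was 2648. In bulk RNA, fewer cells of a kind and less RNA per cell cannot be told apart. The same fit gave 5535 calls for shM3 against B5 (37.8%, with 17.9% higher and 19.9% lower) and 4385 for shM3_CD against B5 (30.0%, with 14.8% higher and 15.2% lower). These comparisons share the B5 libraries, so their values are given side by side only.

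**Figure D1:**
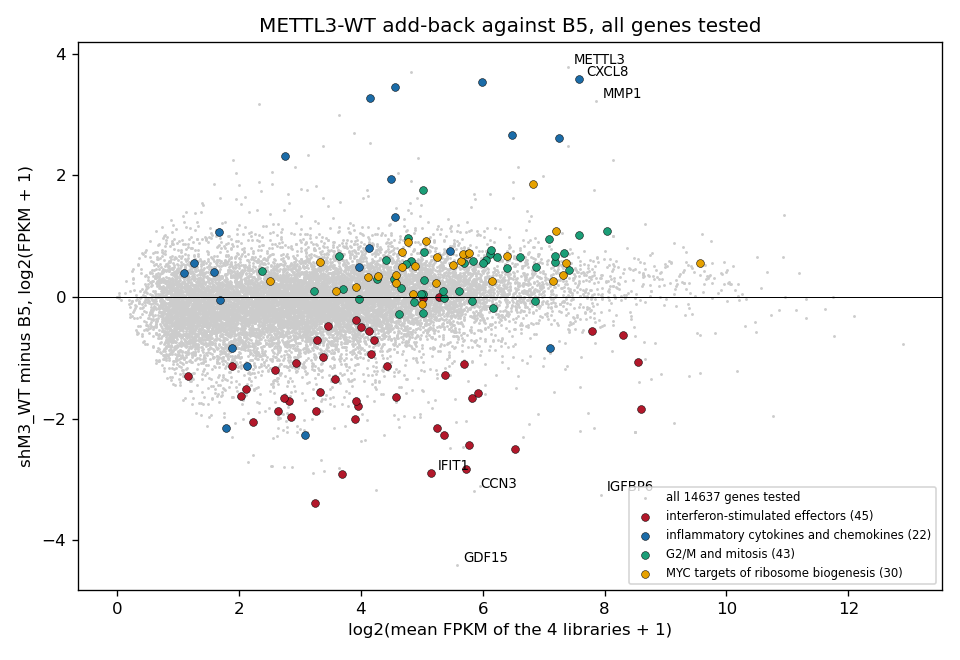
Difference between shM3_WT and B5 in log2(FPKM + 1) for each of the 14637 genes tested, against the log2 of the mean level of the 4 libraries. Interferon-stimulated effectors (red) lie near or below 0, while most G2/M genes (green) and MYC targets of ribosome biogenesis (amber) lie above 0, and cytokine and chemokine genes (blue) lie on both sides.

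Longer genes were called lower more often. By exonic length in GENCODE 29, genes were put into 4 groups of equal size. Of the longest group (7.0 kb and over) 25.2% were called lower and 6.1% higher, against 13.3% and 14.7% of the shortest group (up to 2.52 kb). The median difference went from 0.0045 in the shortest group to -0.18 in the longest. Genes called higher had a median exonic length of 3.59 kb and genes called lower 5.45 kb, against 4.47 kb over all genes, with a length found for 99.4% of the genes tested. Library depth moved with the groups as well. If the commonest lowest step of FPKM in genes with 1 transcript stands for 1 fragment, the B5 libraries would hold 12.7 and 13.6 M (1e6) fragments and the shM3_WT libraries 19.3 and 19.7 M, which is a rough guide only. The part of length or depth in the results was not tested.

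The label of the cells was checked against markers. The 6 genes that mark MDA-MB-231 (VIM, CD44, AXL, MSN, CAV1 and EGFR) were above 1 FPKM in every library, summing to between 1708.6 and 1767.3 FPKM in B5 and between 1924.6 and 2065.9 in shM3_WT. The 6 luminal and epithelial markers summed to 20.7 to 21.7 FPKM in B5 and 9.8 to 11.3 in shM3_WT, with ESR1, PGR and CDH1 at or near 0. The rest of that list was present at low levels. EPCAM stood at 10.2 and 9.9 FPKM in B5 and 5.2 and 5.4 in shM3_WT. GATA3 stood at 5.6 and 7.5 FPKM in B5 and 4.2 and 4.3 in shM3_WT, and TFF3 at 5.9 and 3.2 and at 0.195 and 1.47 FPKM. The 6 blood cell markers summed to 41.8 to 53.3 FPKM and 36.4 to 37.2, nearly all of it LAPTM5 and CD14, with PTPRC, CD3E and HBB at or near 0. The 6 fibroblast and endothelial markers summed to 10.21 to 12.99 FPKM and 4.8 to 5.1, with COL3A1, CDH5 and VWF near 0. COL1A1 stood at 5.5 and 6.8 FPKM in B5 and 3.3 and 3.8 in shM3_WT. PDGFRB stood at 2.98 and 4.51 FPKM in B5 and 0.79 and 0.64 in shM3_WT, and PECAM1 at 1.57 and 1.31 and at 0.62 and 0.57 FPKM.

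The deepest group of falls was the interferon-stimulated effectors, the antiviral genes that type I interferon switches on through a complex that holds STAT2 and IRF9. That complex binds the interferon-stimulated response element, and NF-kB binds a different one, so promoter windows are shown for genes of both pathways. The first 4 lines are 3 effectors and the sensor gene IFIH1, with matches to GAAANNGAAA (here read as TTTCNNTTTC on the other strand) in capitals. The last 3 are the chemokine genes CXCL8 and CXCL1 and the NF-kB feedback gene BIRC3, with matches to GGNNTTTCC (GGAAANNCC on the other strand, for BIRC3) in capitals. Each window is of 60 bases, 5′ to 3′ on the gene's strand and wholly before the annotated start of the RefSeq promoter table (GRCh38.p14).

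IFIT1: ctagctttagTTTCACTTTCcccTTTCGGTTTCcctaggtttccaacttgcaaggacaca

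HERC5: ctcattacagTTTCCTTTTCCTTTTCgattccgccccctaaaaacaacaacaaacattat

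IFI44: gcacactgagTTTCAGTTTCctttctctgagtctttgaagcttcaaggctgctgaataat

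IFIH1: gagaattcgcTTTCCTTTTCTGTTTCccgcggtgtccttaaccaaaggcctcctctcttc

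CXCL8: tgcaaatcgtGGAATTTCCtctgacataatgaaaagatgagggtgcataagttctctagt

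CXCL1: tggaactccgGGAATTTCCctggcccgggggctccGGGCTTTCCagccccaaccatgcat

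BIRC3: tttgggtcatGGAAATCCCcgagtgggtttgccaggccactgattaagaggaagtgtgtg

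Distances run to the start in the RefSeq table, which apart from CXCL1 lies inside the GENCODE gene. The windows are IFIT1 at chr10:89392497-89392556 (plus strand, first capital 116 bases before the start), HERC5 at chr4:88456984-88457043 (plus strand, first capital 125 bases before the start), IFI44 at chr1:78649761-78649820 (plus strand, first capital 60 bases before the start), IFIH1 at chr2:162318794-162318853 (minus strand, first capital 159 bases before the start). The other windows are CXCL8 at chr4:73740468-73740527 (plus strand, first capital 91 bases before the start), CXCL1 at chr4:73869305-73869364 (plus strand, first capital 78 bases before the start), BIRC3 at chr11:102317275-102317334 (plus strand, first capital 199 bases before the start).

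Both motifs were searched on both strands of the 250 bases before each start, in genes with an entry in the table, and a gene counts once if any of its promoters holds a match. GAAANNGAAA was in 26 of the 38 interferon-stimulated effectors matched (68.4%) and in 2 of the 19 cytokine and chemokine genes matched (10.5%), beside 3.71% of all 27305 genes. GGNNTTTCC was in 11 of those 19 cytokine and chemokine genes (57.9%) and in 5 of the 38 effectors (13.2%), beside 6.69% of all genes. Of the 19 sensors and transducers matched, the list of IFIH1, 3 held GAAANNGAAA (15.8%) and 5 held GGNNTTTCC (26.3%). Of the 19 NF-kB genes matched, the list of BIRC3, 1 held GAAANNGAAA (5.26%) and 13 held GGNNTTTCC (68.4%). None of the 36 G2/M genes matched held either. In 21 genes of the whole table matches of the 2 motifs shared bases, none of them in these lists. These motifs were chosen with the results known, and a match is a description of letters, not of a bound site.

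Of 45 interferon-stimulated effectors tested, 41 were called lower in shM3_WT than in B5 and none higher, with a median difference of -1.57 (40 lower and a median of -1.47 with TMM factors). Among the 41, 33 were lower by at least 2-fold. IFIT1 (hg38 chr10:89392546-89406486, plus strand), which binds viral RNA lacking a host cap, stood at 63.9 and 59.4 FPKM in B5 and 7.14 and 7.71 in shM3_WT, 8.30-fold lower (log2 difference -2.89, SE 0.08, adjusted p = 4.0e-06). IFIT3, its partner, stood at 159.8 and 154 FPKM in B5 and 27.2 and 26.8 in shM3_WT (5.81-fold lower, log2 difference -2.49, SE 0.07, adjusted p = 3.9e-06). RSAD2 (viperin), which makes a chain-terminating nucleotide, fell from 15.4 and 17.3 to 0.591 and 0.723 FPKM (log2 difference -3.39, SE 0.16, adjusted p = 4.9e-05), and OAS1, which makes the messenger that activates RNase L, from 23.2 and 20.5 to 2.52 and 1.64 FPKM (log2 difference -2.90, SE 0.17, adjusted p = 9.7e-05). For each of these genes both shM3_WT libraries lay below both B5 libraries, as for 38.56% of all genes tested. The naming rule required this of IFIT1, RSAD2 and OAS1. IFIT2 was 7.64-fold lower (83.9 and 99.3 against 11.3 and 12.7 FPKM), OASL 5.70-fold lower (91.5 and 90.5 against 15.6 and 16.3 FPKM), the ISG15 ligase HERC5 5.13-fold lower (65.5 and 68.8 against 13.2 and 12.9 FPKM) and IFI44 4.70-fold lower (63.3 and 58.7 against 12.5 and 13.5 FPKM). The 4 effectors not called were DDX60L (log2 difference -0.48, adjusted p = 0.084), PARP12 (log2 difference -0.49, adjusted p = 0.069), IFITM2 (log2 difference -0.01, adjusted p = 0.96) and TRIM25 (log2 difference 0.00, adjusted p = 0.999).

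Fewer of these genes were low in the knockdown itself. Against B5, 5 effectors were called higher and 18 lower in shM3 (median -0.26), and none higher and 31 lower in shM3_CD (median -0.67). The mean of shM3_WT was the lowest of the 4 groups for 39 of the 45, beside 34.7% of all genes. IFIT1 was at 48.4 and 47.9 FPKM in shM3 and 42.7 and 40.5 in shM3_CD, nearer to B5 than to shM3_WT. MX1, a GTPase that traps viral capsids, had 45.1 and 43.6 FPKM in shM3, 21.5 and 24.4 FPKM in B5 and 9.92 and 10.98 FPKM in shM3_CD, and only 5.84 and 5.96 FPKM in shM3_WT. For IFITM1, which blocks viral entry, the values in the same order of groups were 137 and 134, then 71.01 and 67.7, then 80.2 and 79.5, then 34.2 and 29.6 FPKM. Both had thus been highest in shM3 and were lowest in shM3_WT. TRIM22 went another way: from 7.62 and 9.93 FPKM in B5 it was low in both shM3 (0.956 and 1.42 FPKM) and shM3_WT (1.79 and 1.53 FPKM).

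**Figure D2:**
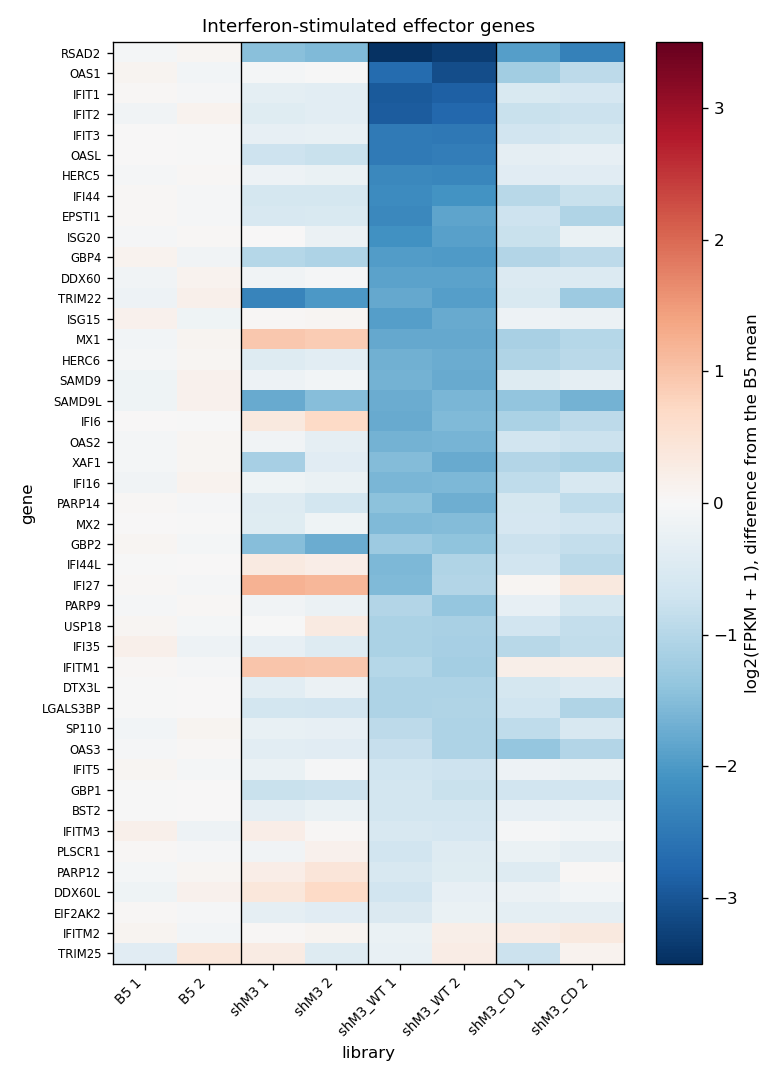
Levels of the 45 interferon-stimulated effectors in the 8 libraries, as log2(FPKM + 1) minus the mean of the B5 libraries, with genes ordered by the difference between shM3_WT and B5. The shM3_WT columns are blue for nearly all genes, while the shM3 columns are mixed, with MX1, IFI27 and IFITM1 above B5.

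The sensors and transducers upstream of these effectors fell in part. Of 26 tested, 13 were called lower and 2 higher (median -0.40), and without shM3_WT replicate 1 the 13 became 8. IFIH1 (MDA5), a sensor of long double-stranded RNA, fell 11.97-fold, from 28.7 and 38.04 to 2.57 and 3.01 FPKM (log2 difference -3.17, SE 0.15, adjusted p = 4.5e-05). DDX58 (RIG-I), which reads short RNA with a triphosphate end, stood at 54.1 and 57.2 FPKM in B5 and 16.9 and 16.3 in shM3_WT (log2 difference -1.69, SE 0.08, adjusted p = 4.0e-05), and DHX58 (LGP2), which modulates both, at 10.8 and 11.6 FPKM in B5 and 3.34 and 2.87 in shM3_WT (log2 difference -1.57, SE 0.12, adjusted p = 0.00027). STAT2 stood at 16.9 and 18.3 FPKM in B5 and 7.41 and 7.44 in shM3_WT (log2 difference -1.14, SE 0.09, adjusted p = 0.00039). Apart from IFIH1, these genes were close to B5 in shM3: DDX58 was at 53.7 and 56.4 FPKM and STAT2 at 17.7 and 15.9 FPKM there. The 2 called higher were the kinase gene IKBKE (11.1 and 13.1 FPKM in B5 and 20.9 and 21.7 in shM3_WT) and CGAS, the sensor of cytosolic DNA (19.1 and 18.6 FPKM in B5 and 30.4 and 25.8 in shM3_WT). The CGAS call was lost without B5 replicate 1 (adjusted p = 0.0666), B5 replicate 2 (0.0906) or shM3_WT replicate 1 (0.118).

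Inflammatory cytokines and chemokines rose where the interferon genes fell. Of 27 in the list 22 passed the filter, and 12 of these were called higher and 5 lower (median 0.78), 10 of the 12 by at least 2-fold. CXCL8 (hg38 chr4:73740506-73743716, plus strand), the main attractant of neutrophils, stood at 30.5 and 27.1 FPKM in B5 and 351 and 355 in shM3_WT, 12.3-fold higher (log2 difference 3.58, SE 0.08, adjusted p = 2.6e-06). CSF2 and CSF3, growth factor genes of myeloid cells, were also higher: CSF2 stood at 11.8 and 6.94 FPKM in B5 and 118 and 114 in shM3_WT (log2 difference 3.53, SE 0.22, adjusted p = 0.00013) and CSF3 at 2.73 and 3.15 FPKM in B5 and 42.4 and 41.8 in shM3_WT (log2 difference 3.45, SE 0.13, adjusted p = 1.4e-05). 3 more chemokine genes of the same family, all attractants of neutrophils, were higher.

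CXCL1 stood at 45.8 and 37.9 FPKM in B5 and 267 and 253 in shM3_WT (6.22-fold). CXCL2 stood at 9.08 and 7.65 FPKM in B5 and 36.02 and 33.6 in shM3_WT (4.16-fold). CXCL3 stood at 2.21 and 2.41 FPKM in B5 and 33.7 and 28.2 in shM3_WT (13.4-fold). For each, both shM3_WT libraries lay above both B5 libraries, as for 27.18% of all genes tested. The naming rule required this of CXCL1 and CXCL3. CXCL1, CXCL2 and CXCL3 are close copies of each other, so reads may be split between them. IL11, a cytokine that signals through gp130, stood at 18.9 and 28.4 FPKM in B5 and 154 and 150.5 in shM3_WT (6.44-fold, log2 difference 2.66, SE 0.16, adjusted p = 0.00013), IL1B at 1.02 and 1.52 FPKM in B5 and 10.9 and 9.67 in shM3_WT (8.10-fold) and IL6 at 28.8 and 34.8 FPKM in B5 and 53.6 and 54.6 in shM3_WT (1.70-fold, log2 difference 0.75, SE 0.13, adjusted p = 0.0054). In shM3, CXCL8 was at 19.6 and 19.3 FPKM and CSF2 at 6.27 and 4.83 FPKM, no higher than in B5. In shM3_CD they were at 170.0 and 179.6 and 43.96 and 39.9 FPKM, below shM3_WT. Others were as high in shM3_CD as in shM3_WT or higher: CSF3 at 48.9 and 47.8, IL1B at 11.2 and 10.8 and IL6 at 83.2 and 103.7 FPKM. Over the list, 6 were called higher and 6 lower in shM3 against B5, and 16 and 4 in shM3_CD.

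The 5 called lower in shM3_WT included chemokines that interferon induces. CXCL10, an attractant of T cells, stood at 13.8 and 12.3 FPKM in B5 and 1.71 and 2.11 in shM3_WT (6.84-fold lower, log2 difference -2.27, SE 0.12, adjusted p = 6.6e-05), and CCL5 at 4.94 and 4.33 FPKM in B5 and 0.155 and 0.396 in shM3_WT (log2 difference -2.15, SE 0.19, adjusted p = 0.00043). The other 3 were CSF1, the macrophage growth factor gene (180.3 and 169 FPKM in B5 and 104 and 91.6 in shM3_WT), CCL26 (5.32 and 4.65 FPKM in B5 and 1.99 and 1.47 in shM3_WT) and CX3CL1 (2.66 and 4.87 FPKM in B5 and 1.45 and 1.74 in shM3_WT). The CX3CL1 call was lost without B5 replicate 2 (adjusted p = 0.119) or either shM3_WT library (0.138 and 0.0914).

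**Figure D3:**
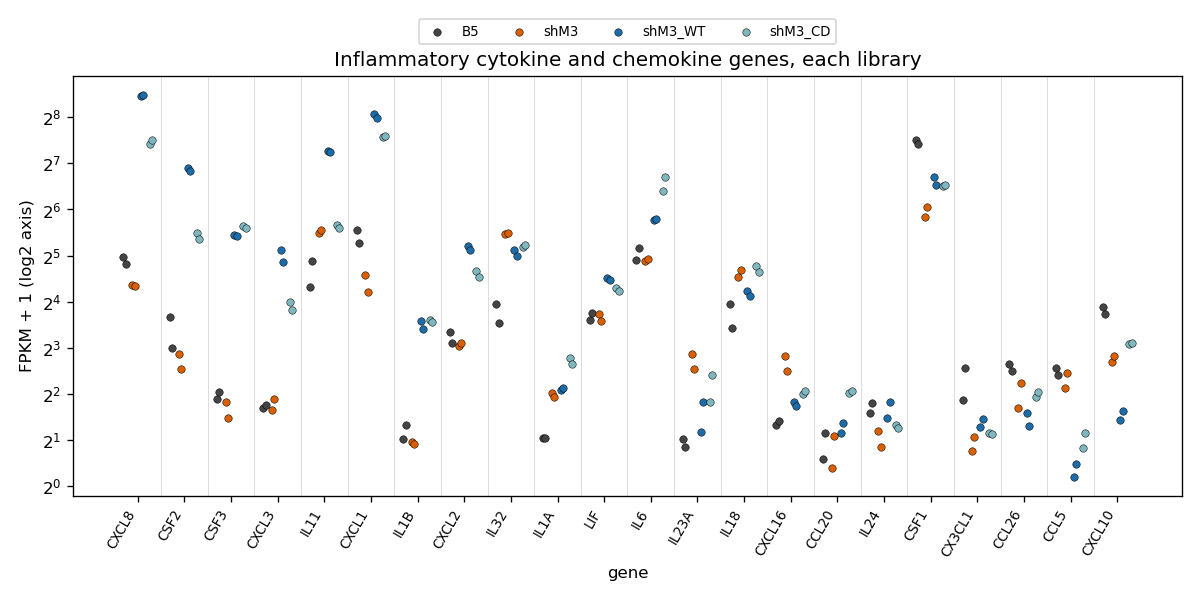
Levels of the 22 cytokine and chemokine genes tested, as FPKM + 1 on a log2 axis, 1 point per library, ordered from the highest rise in shM3_WT against B5 to the deepest fall. From CXCL8 to CXCL2 both shM3_WT points lie above both B5 points, and at the right end CXCL10 and CCL5 lie below them.

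Genes of the NF-kB pathway, which drives many of these cytokines, were called higher in 10 of 21 cases and lower in 2 (median 0.40). BIRC3, a ubiquitin ligase of the TNF receptor complex, stood at 7.33 and 6.70 FPKM in B5 and 22.2 and 25.3 in shM3_WT (log2 difference 1.63, SE 0.15, adjusted p = 0.00052). TNIP1, a feedback inhibitor, stood at 129 and 128 FPKM in B5 and 214 and 204 in shM3_WT, and the subunit gene NFKB2 at 38.8 and 42.05 FPKM in B5 and 63.8 and 62.3 in shM3_WT (log2 difference 0.63, SE 0.08, adjusted p = 0.0017). The adaptor gene TRAF1 stood at 9.46 and 9.94 FPKM in B5 and 14.2 and 14.7 in shM3_WT. The subunit gene RELA was not called (log2 difference -0.23, adjusted p = 0.37). The 2 called lower were SOD2 (118 and 89.9 FPKM in B5 and 52.03 and 33.7 in shM3_WT) and BCL3 (22.8 and 20.3 FPKM in B5 and 16.5 and 15.02 in shM3_WT), and both calls were lost without B5 replicate 1 (adjusted p = 0.0746 and 0.0533) and without shM3_WT replicate 2 (0.0816 and 0.0786). TNIP1, NFKB2 and TRAF1 were also above B5 in shM3, at 173 and 186, 56.9 and 62.01 and 15.7 and 16.1 FPKM, where 9 of the 21 were called higher and 2 lower.

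Among complement and acute-phase genes, which tissues make in inflammation, 5 of 14 were called higher, each by at least 2-fold, and 6 lower. The acute-phase protein gene SAA1 stood at 99.2 and 92.9 FPKM in B5 and 410.0 and 519 in shM3_WT (4.83-fold, log2 difference 2.25, SE 0.12, adjusted p = 7.6e-05) and its near copy SAA2 at 35.6 and 28.6 FPKM in B5 and 98.8 and 112 in shM3_WT, between which reads may be split. LCN2, which binds bacterial siderophores, stood at 3.47 and 2.41 FPKM in B5 and 21.4 and 27.8 in shM3_WT (8.36-fold), the central complement gene C3 at 11.3 and 10.6 FPKM in B5 and 45.5 and 41.5 in shM3_WT (3.98-fold) and the pattern-recognition gene PTX3 at 62.8 and 60.5 FPKM in B5 and 156 and 158 in shM3_WT (2.55-fold). C3 had been at 3.05 and 3.59 FPKM in shM3 and was at 77.4 and 75.7 FPKM in shM3_CD. CD55, which shields cells from complement, stood at 141 and 145 FPKM in B5 and 61.5 and 72.7 in shM3_WT (2.13-fold lower, log2 difference -1.08, SE 0.09, adjusted p = 0.00041).

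Antigen presentation genes stayed below B5 in part. Class II molecules display peptides to helper T cells. In shM3 all 12 class II genes tested were called lower than in B5 (median -2.19), and in shM3_WT 4 were called lower and none higher (1 higher without either shM3_CD library, median -0.31), while the other 8 were not called. HLA-DRA (hg38 chr6:32439842-32445046, plus strand), a class II chain, stood at 225 and 207 FPKM in B5 and 148 and 152 in shM3_WT. It was far lower in shM3, at 16.97 and 18.1 FPKM, and reached 110.4 and 101 FPKM in shM3_CD. CD74, the invariant chain, stood at 529 and 473 FPKM in B5 and 302 and 297 in shM3_WT, and at 119 and 122 FPKM in shM3 and 227 and 228 FPKM in shM3_CD. HLA-DMA, which loads peptide, stood at 38.5 and 36.9 FPKM in B5 and 23.02 and 22.97 in shM3_WT (log2 difference -0.69, SE 0.09, adjusted p = 0.0024). CIITA, the factor that switches class II genes on, stood at 9.64 and 8.15 FPKM in B5 and 8.76 and 7.41 in shM3_WT (log2 difference -0.12, adjusted p = 0.55), and its groups overlapped.

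Of 21 genes of class I and peptide loading, which show peptides to cytotoxic T cells, 11 were called lower and 1 higher (median -0.43), against 16 and none in shM3. B2M, the light chain, stood at 449.9 and 433 FPKM in B5 and 275 and 288 in shM3_WT (log2 difference -0.65, SE 0.07, adjusted p = 0.00091) but had been at 394 and 406 FPKM in shM3. HLA-B stood at 914 and 849 FPKM in B5 and 578 and 593 in shM3_WT (1.51-fold lower). The immunoproteasome gene PSMB8 stood at 98.4 and 95.3 FPKM in B5 and 54.8 and 65.4 in shM3_WT (log2 difference -0.68, SE 0.10, adjusted p = 0.0037). HLA genes are near copies of each other and vary between people, so their reads may be split.

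Mitotic genes went past the level of B5. Of 43 G2/M genes tested, 26 were called higher and none lower (median 0.49), 1 was called lower without B5 replicate 1, and 17 were called higher without B5 replicate 2 or without either shM3_WT library. CDC20, the activator of the anaphase-promoting complex, stood at 128 and 121 FPKM in B5 and 257 and 252 in shM3_WT (2.04-fold, log2 difference 1.02, SE 0.07, adjusted p = 0.00018). The mitotic cyclin gene CCNB1 stood at 92.6 and 91.8 FPKM in B5 and 178 and 179 in shM3_WT (1.94-fold), CCNA2 at 52.4 and 50.9 FPKM in B5 and 85.9 and 83.7 in shM3_WT (1.64-fold) and ANLN, a scaffold of the cleavage furrow, at 55.8 and 59.6 FPKM in B5 and 89.6 and 93.4 in shM3_WT (1.59-fold). In shM3 these genes were below B5: CDC20 was at 74.4 and 70.4 FPKM and CCNB1 at 46.3 and 49.8 FPKM, and 40 of the 43 were called lower there and none higher. In shM3_CD, 24 were called lower and 1 higher. The mean of shM3_WT was the highest of the 4 groups for 35 of the 43, beside 20.99% of all genes.

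S phase genes came back to about the level of B5, some above and some below it. Of 46 tested, 11 were called higher and 5 lower (median 0.11), beside 41 lower and 1 higher in shM3 (median -1.003). The higher count depends on single libraries: it was 6 without B5 replicate 2, 5 without either shM3_WT library, 7 without B5 replicate 1 and 6 without either shM3_CD library, and 16 with TMM factors. The lower count was 3 without B5 replicate 2 and 2 without either shM3_WT library. TYMS, which makes thymidylate, stood at 111 and 98.1 FPKM in B5 and 97.98 and 99.4 in shM3_WT, with 20.4 and 21.8 FPKM in shM3, and E2F1, which switches S phase genes on, at 42.8 and 37.7 FPKM in B5 and 40.2 and 37.9 in shM3_WT, with 9.12 and 9.98 FPKM in shM3. For both, B5 and shM3_WT overlapped. Those called lower included 2 genes of the replicative helicase, MCM5 at 39.97 and 45.1 FPKM in B5 and 25.9 and 26.9 in shM3_WT (log2 difference -0.67, SE 0.09, adjusted p = 0.002) and MCM6 at 28.3 and 29.1 FPKM in B5 and 18.1 and 17.5 in shM3_WT (log2 difference -0.66, SE 0.09, adjusted p = 0.002). ORC6, of the origin recognition complex, stood at 17.4 and 17.04 FPKM in B5 and 29.4 and 28.2 in shM3_WT (log2 difference 0.71, SE 0.13, adjusted p = 0.0069). Of 30 genes of DNA repair by recombination 3 were called lower and 2 higher, shares below those of all genes, and with any 1 of the B5 or shM3_WT libraries left out none was called higher. Among them ATM, the kinase that signals double-strand breaks, stood at 18.5 and 20.4 FPKM in B5 and 8.94 and 9.44 in shM3_WT (2.11-fold lower, adjusted p = 0.00046) and RAD50, of the complex that finds these breaks, at 9.05 and 7.93 FPKM in B5 and 4.31 and 3.30 in shM3_WT (log2 difference -0.99, SE 0.15, adjusted p = 0.0033).

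Most genes listed as MYC targets of ribosome biogenesis were higher, though the list also holds genes of other processes, such as ODC1 and NME1. Of 30 MYC targets of ribosome biogenesis 21 were called higher and none lower (median 0.52), beside 13 higher and 3 lower in shM3. ODC1, the first enzyme of polyamine synthesis, stood at 51.8 and 44.3 FPKM in B5 and 175 and 177 in shM3_WT (3.67-fold, log2 difference 1.86, SE 0.09, adjusted p = 4.9e-05). NME1, a nucleoside diphosphate kinase, stood at 98.9 and 88.9 FPKM in B5 and 183 and 215 in shM3_WT (2.12-fold), RRP9, which works in ribosomal RNA processing, at 22.8 and 21.5 FPKM in B5 and 42.9 and 42.7 in shM3_WT (1.93-fold) and the helicase gene DDX21 at 39.6 and 41.2 FPKM in B5 and 67.5 and 66.1 in shM3_WT (1.66-fold). DDX21 was as high in shM3 (72.9 and 75.2 FPKM), while RRP9 was at 23.2 and 22.2 FPKM there.

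Of 76 cytosolic ribosomal protein genes 25 were called higher and 1 lower (median 0.33), and 44 and none with TMM factors. This count varied with single libraries: it was 45 without B5 replicate 1, 16 without B5 replicate 2 and 8 without shM3_WT replicate 2. RPSA stood at 672 and 642 FPKM in B5 and 925 and 974 in shM3_WT (1.45-fold, log2 difference 0.53, SE 0.07, adjusted p = 0.0021) and RPL17 at 232 and 237 FPKM in B5 and 315 and 351 in shM3_WT (1.42-fold). These genes have many processed copies in the genome, so reads may be split. Of 39 nuclear genes of oxidative phosphorylation 9 were called higher and none lower (16 without B5 replicate 1 and 4 without shM3_WT replicate 2), with ATP5MC1, of the ATP synthase, at 45.9 and 49.6 FPKM in B5 and 93.2 and 119 in shM3_WT (2.22-fold).

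**Figure D4:**
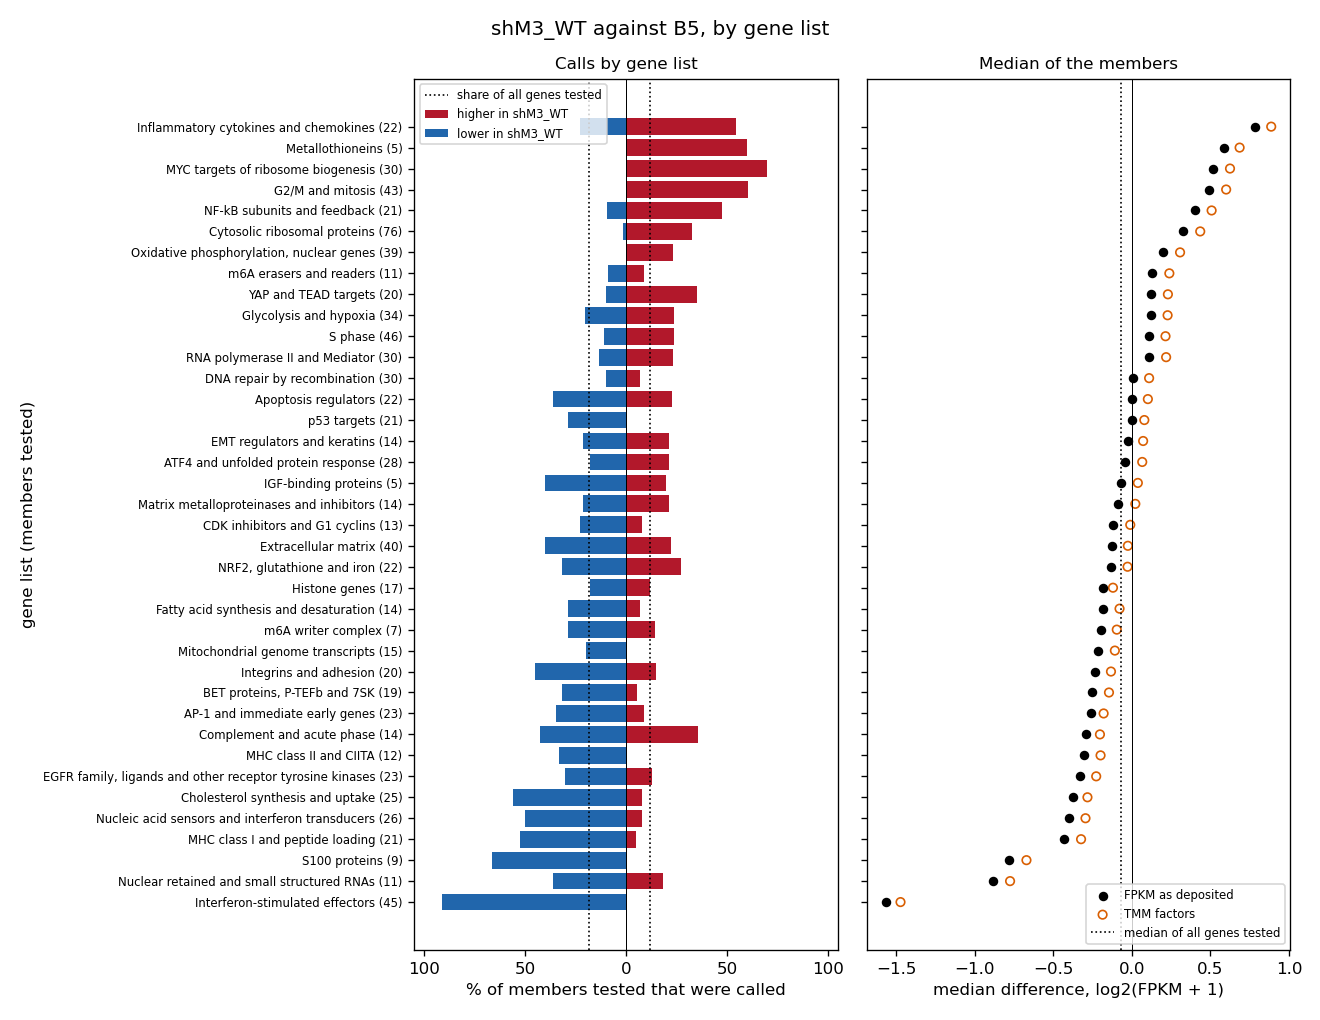
Left, share of the tested members of each of 38 gene lists called higher (red) or lower (blue) in shM3_WT against B5, with the shares over all genes as dotted lines; right, the median difference in log2(FPKM + 1) as deposited and with TMM factors. Interferon-stimulated effectors have the lowest median (-1.57) and cytokines and chemokines the highest (0.78), and TMM factors move every list upward by about the same amount.

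Genes of the knockdown came back to B5 to different degrees. A list of 18 genes with large changes in the knockdown was chosen on B5 against shM3. B5 was thus used to choose it, and its values are given with no test. It is not the top of a ranking. In shM3 against B5, PTN (log2 difference -2.89) and F3 (2.41) are not in it, while BNIP3 (1.28) is. CCN3, a matricellular protein, stood at 105 and 102 FPKM in B5 and 10.7 and 10.2 in shM3_WT, against 9.04 and 9.27 FPKM in shM3. TIMP3, an inhibitor of matrix proteases, stood at 339 and 329 FPKM in B5 and 90.7 and 86.4 in shM3_WT, against 126 and 123 FPKM in shM3, so it was lower with the add-back than without. VAMP3, a membrane fusion protein, stood at 7.79 and 9.31 FPKM in B5 and 37.3 and 38.7 in shM3_WT, against 51.4 and 50.5 FPKM in shM3, and stayed far above B5.

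Others of the 18 lay between shM3 and B5. The nerve growth factor receptor gene NGFR went from 73.6 and 73.6 FPKM in B5 to 2.48 and 3.04 with the knockdown and 12.5 and 12.3 with the add-back. In the same order, VIPR1, a neuropeptide receptor gene, stood at 52.5 and 42.1, 3.76 and 2.86 and 15.9 and 14.9 FPKM, the transporter gene SLCO4A1 at 134 and 133, 11.01 and 10.1 and 62.9 and 65.5 FPKM, and fibronectin, FN1, at 168 and 178, 39.6 and 45.2 and 79.3 and 76.9 FPKM. All 4 had shM3_WT above shM3 and below B5.

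HLA-DRA, HLA-DPA1 and CD74 also lay in between, with HLA-DPA1 at 55.4 and 49.4 FPKM in B5 and 43.7 and 41.5 in shM3_WT, against 6.19 and 6.66 FPKM in shM3. In the order B5, shM3, shM3_WT, LAPTM5, a lysosomal membrane protein of blood cells, stood at 36.1 and 35.1, 8.57 and 6.64 and 31.1 and 32.6 FPKM, nearly back at B5. Among those that the knockdown had raised, the glutathione-degrading enzyme CHAC1 stood at 2.84 and 2.97, 22.98 and 23.6 and 2.81 and 3.27 FPKM and the histone gene H2BC4 at 2.69 and 2.68, 21.9 and 19.3 and 1.67 and 1.73 FPKM, so with the add-back CHAC1 overlapped B5 and H2BC4 lay below it. The long noncoding RNA UCA1 stood at 1.19 and 0.725, 9.85 and 12.5 and 2.87 and 2.98 FPKM, the keratin-associated KRTAP2-3 at 4.65 and 2.08, 23.6 and 26.2 and 13.2 and 14.5 FPKM, and BNIP3, of mitophagy, at 51.9 and 47.7, 124 and 121 and 92.9 and 94.1 FPKM, all still above B5.

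**Figure D5:**
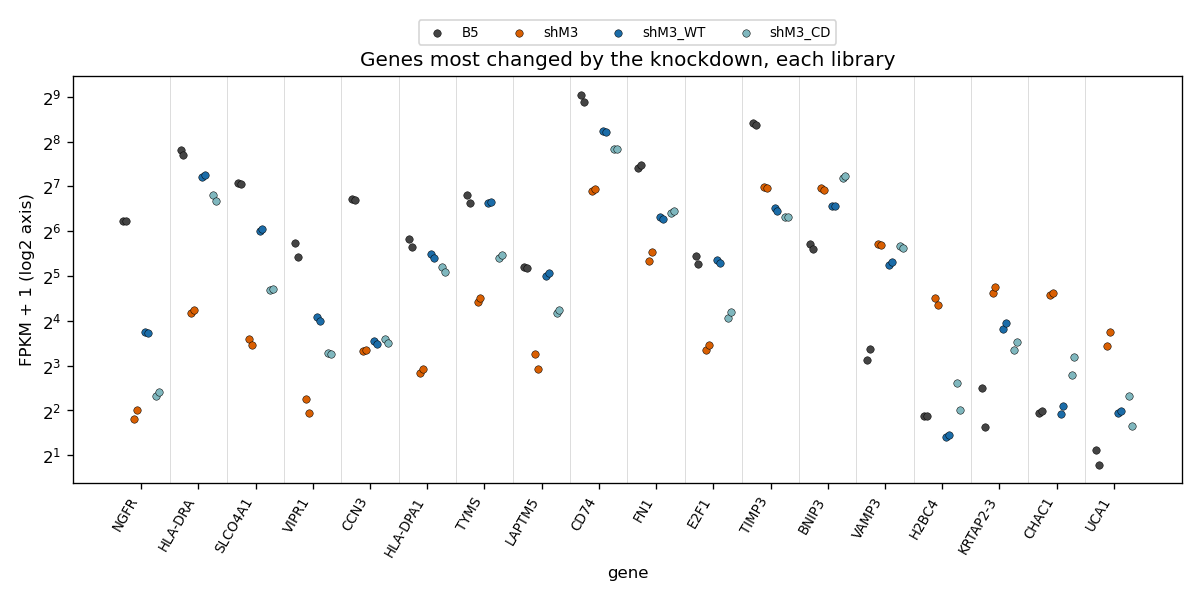
Levels of the 18 genes of the knockdown list, which is not the top of a ranking, as FPKM + 1 on a log2 axis. Each library has 1 point, and genes are ordered from the deepest fall in shM3 against B5 to the highest rise. TYMS and E2F1 overlap between B5 and shM3_WT, while CCN3, TIMP3 and VAMP3 in shM3_WT lie near shM3.

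Of 40 extracellular matrix genes 16 were called lower and 9 higher (median -0.13), beside 25 and 9 in shM3, and the higher count was 4 without shM3_WT replicate 1. Collagen VI, a beaded filament of the pericellular matrix, stayed low: COL6A1 stood at 121 and 151 FPKM in B5 and 47.5 and 47.8 in shM3_WT (2.86-fold lower, log2 difference -1.49, SE 0.11, adjusted p = 0.00027) and COL6A2 at 24.8 and 27.4 FPKM in B5 and 9.10 and 9.92 in shM3_WT (2.74-fold lower), with 40.3 and 44.7 and 9.72 and 10.1 FPKM in shM3. F3, tissue factor, which starts coagulation, stood at 50.05 and 50.4 FPKM in B5 and 207 and 197 in shM3_WT (4.02-fold, log2 difference 1.98, SE 0.06, adjusted p = 8.7e-06) and at 271 and 269.9 FPKM in shM3. For these 3 genes both libraries of shM3_WT lay nearer to shM3 than to B5.

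MMP1, an interstitial collagenase, was different, since it was high with METTL3-WT. It stood at 44.5 and 44.01 FPKM in B5 and 414 and 425 in shM3_WT (9.47-fold, log2 difference 3.21, SE 0.07, adjusted p = 2.6e-06), at 56.9 and 52.4 FPKM in shM3 and at 102 and 102 FPKM in shM3_CD. TNC, a matrix protein of wounds, stood at 13.4 and 16.2 FPKM in B5 and 39.02 and 40.8 in shM3_WT (2.70-fold) and at 7.93 and 7.43 FPKM in shM3. TIMP1 stood at 1046 and 861 FPKM in B5 and 371 and 400.1 in shM3_WT (2.47-fold lower). Of 14 metalloproteinase genes and inhibitors 3 were called higher and 3 lower, beside 11.8% and 18.2% of all genes.

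Of 20 integrins and adhesion genes 9 were called lower and 3 higher (median -0.24). ITGB4, the hemidesmosome integrin chain, stood at 80.3 and 88.2 FPKM in B5 and 29.4 and 21.5 in shM3_WT (3.31-fold lower, log2 difference -1.70, SE 0.17, adjusted p = 0.00078), and L1CAM at 54.4 and 66.9 FPKM in B5 and 29.3 and 26.4 in shM3_WT (2.18-fold lower). Of 23 receptor tyrosine kinases and ligands 7 were called lower and 3 higher, with the collagen receptor gene DDR1 at 33.9 and 36.9 FPKM in B5 and 13.2 and 11.1 in shM3_WT (2.92-fold lower), EGFR at 53.4 and 51.99 FPKM in B5 and 37.2 and 34.7 in shM3_WT (1.47-fold lower) and the ligand gene HBEGF at 29.8 and 33.3 FPKM in B5 and 57.04 and 57.3 in shM3_WT (1.81-fold higher). Of 23 AP-1 and immediate early genes 8 were called lower and 2 higher (4 higher with TMM factors), with FOSL1 at 63.1 and 51.2 FPKM in B5 and 147 and 159 in shM3_WT (2.67-fold higher), JUNB at 51.5 and 47.2 FPKM in B5 and 28.7 and 26.8 in shM3_WT (1.78-fold lower) and the ERK phosphatase gene DUSP6 at 90.9 and 86.3 FPKM in B5 and 40.7 and 40.7 in shM3_WT (2.18-fold lower). Also among the 12 highest rises were PDZK1IP1, a small membrane protein (1.60 and 1.94 FPKM in B5 and 21.1 and 21.1 in shM3_WT, 11.9-fold), and MUSK, a receptor kinase of the neuromuscular junction (1.79 and 2.60 FPKM in B5 and 17.3 and 16.01 in shM3_WT, 7.60-fold).

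Secreted factors made up much of the rest of the deepest falls. GDF15 (hg38 chr19:18374731-18389176, plus strand), a stress hormone of the TGF-beta family, stood at 87.8 and 92.5 FPKM in B5 and 3.18 and 3.40 in shM3_WT, 27.4-fold lower (log2 difference -4.41, SE 0.08, adjusted p = 2.0e-06), and at 18.96 and 19.2 FPKM in shM3. IGFBP6, which binds insulin-like growth factor II, stood at 423 and 459 FPKM in B5 and 43.5 and 47.6 in shM3_WT, 9.69-fold lower (log2 difference -3.25, SE 0.08, adjusted p = 2.6e-06). IGFBP6 was at 385 and 392 FPKM in shM3 and 185 and 184 FPKM in shM3_CD, so it was not low in the knockdown. PTN, a heparin-binding growth factor, stood at 17.04 and 18.1 FPKM in B5 and 1.31 and 1.83 in shM3_WT and at 1.42 and 1.61 FPKM in shM3, and the secreted protease inhibitor gene PI16 at 15.3 and 15.6 FPKM in B5 and 1.26 and 1.15 in shM3_WT. PLAAT4, a phospholipase induced by retinoids, stood at 114 and 106 FPKM in B5 and 12.2 and 11.5 in shM3_WT, and SCNN1A, a chain of the epithelial sodium channel, at 19.3 and 22.4 FPKM in B5 and 1.79 and 2.45 in shM3_WT. In each of these genes both shM3_WT libraries lay below both B5 libraries, which the rule for naming the deepest falls required. Of all genes tested, 38.56% had this order. Of 9 S100 genes, which encode small calcium-binding proteins, 6 were called lower and none higher (1 higher without B5 replicate 1, median -0.78), with S100A4 at 1136 and 993 FPKM in B5 and 419 and 476 in shM3_WT (2.38-fold lower) and S100P at 10.3 and 12.8 FPKM in B5 and 1.95 and 1.80 in shM3_WT (6.16-fold lower).

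Cholesterol genes were lower. Of 25 genes of cholesterol synthesis and uptake 14 were called lower and 2 higher (median -0.37), and 10 and 2 with TMM factors or equal medians. Without shM3_WT replicate 2 the 14 became 9. INSIG1, the sterol-regulated anchor of SREBP, stood at 22.7 and 23.3 FPKM in B5 and 7.39 and 9.09 in shM3_WT (2.79-fold lower, log2 difference -1.38, SE 0.11, adjusted p = 0.00033). The regulator genes SREBF1 and SREBF2 stood at 43.9 and 48.2 FPKM in B5 and 25.3 and 25.5 in shM3_WT, and at 32.3 and 31.2 FPKM in B5 and 19.8 and 20.1 in shM3_WT. In shM3, 9 of the 25 were called higher and 6 lower, and INSIG1 was at 22.4 and 22.9 FPKM. SCD, which desaturates fatty acids, stood at 82.3 and 86.3 FPKM in B5 and 20.7 and 18.7 in shM3_WT (4.27-fold lower, log2 difference -2.04, SE 0.08, adjusted p = 1.7e-05).

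A list of nuclear and small structured RNAs, which also holds the long noncoding RNAs SNHG1 and UCA1, moved both ways. Of 11 tested, 4 were called lower and 2 higher (median -0.89, and -0.43 without B5 replicate 2 and -0.40 without shM3_WT replicate 1). Those called higher were SNHG1, a host gene of small nucleolar RNAs, at 16.2 and 16.2 FPKM in B5 and 34.6 and 35.9 in shM3_WT (2.18-fold, log2 difference 1.08, SE 0.08, adjusted p = 0.00031), and UCA1, of which only SNHG1 was called without B5 replicate 2 or either shM3_WT library. RN7SK, the RNA that holds P-TEFb inactive, stood at 11.6 and 11.9 FPKM in B5 and 1.28 and 0.474 in shM3_WT (log2 difference -2.80, SE 0.32, adjusted p = 0.0012), MALAT1 at 10.1 and 20.5 FPKM in B5 and 3.47 and 3.00 in shM3_WT (log2 difference -1.87, SE 0.29, adjusted p = 0.0039) and RN7SL1, of the signal recognition particle, at 305 and 259 FPKM in B5 and 80.8 and 123 in shM3_WT (log2 difference -1.49, SE 0.25, adjusted p = 0.0049). RN7SK, MALAT1 and RN7SL1 were also below B5 in shM3_CD, at 5.16 and 2.77, 3.88 and 5.21 and 121 and 183 FPKM. In shM3 they were at 12.4 and 7.66, 14.2 and 15.8 and 338 and 387 FPKM. Over the list, 3 were called higher and 1 lower in shM3 against B5, and 3 and 3 in shM3_CD. RN7SK and RN7SL1 have many copies in the genome, so reads may be split. Of 19 BET and P-TEFb genes 6 were called lower and 1 higher, but 2 and 2 with TMM factors or equal medians, and 3 were called lower without B5 replicate 2 or either shM3_WT library. HEXIM1, the protein that works with RN7SK, stood at 41.5 and 44.2 FPKM in B5 and 25.1 and 28.7 in shM3_WT (log2 difference -0.65, SE 0.10, adjusted p = 0.0034) and was near B5 in shM3 (47.2 and 44.7 FPKM). Of 30 genes of RNA polymerase II and Mediator 7 were called higher and 4 lower, but 4 were called higher without B5 replicate 2 and 2 without either shM3_WT library.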

How the data were processed

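RNA of MDA-MB-231 cells was sequenced, and the authors deposited 1 table of FPKM values for these 8 libraries, with the unit in the table's name. The build, per the submitters' processing notes, was hg38, and the tools they name are HISAT2 2.1.0, Cufflinks 2.2.1 and CASAVA 1.4. The sources used here do not give what each tool did, which annotation was used or whether strand was kept, so overlapping and antisense genes may share reads. The labels' protocols describe a directional kit and a depletion of ribosomal RNA without saying which samples each applies to. FPKM keeps no depth, so no interval that needs counts is given. PIDD1, listed at 8234200 FPKM in B5 replicate 2 and between 8.44 and 13.5 in the other libraries, was left out. The FPKM of the other genes summed to between 423171 and 451102.

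A gene was kept if 2 or more libraries reached 1 FPKM, and log2(FPKM + 1) of all 4 groups fitted with limma 3.58.1 (eBayes with trend, no block) in R 4.3.3. The fit was tested on simulated data. Python 3.11.15, pandas 2.3.3 and matplotlib 3.10.9 were used for summaries, GENCODE 29 for locations and lengths, and RefSeq for promoters.

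The members, the 39 gene lists and the motifs were chosen with earlier results of these data known. Genes are named from METTL3, METTL14 and WTAP, the 12 highest rises and 12 deepest falls (adjusted p under 0.05, no overlap of libraries, mean of at least 5 FPKM), and, of each list, up to 4 with the smallest adjusted p. The list of knockdown genes is given whole, and a few genes that the rule selects are not reported here. Other genes were chosen after their values were seen: IFI44, MX1, IFITM1, TRIM22, the effectors not called, IKBKE, CGAS, IL1B, IL6, CXCL2, CSF1, CCL5, CCL26, CX3CL1, SAA2, RELA, SOD2, BCL3, CIITA, COL6A1 and TNC. Alternatives were a replicate block, a fit of B5 and shM3_WT alone, pseudocounts of 0.1 and 5, other filters, TMM factors computed by hand, equal medians, a limit of 2-fold, and fits that leave out 1 of the 8 libraries in turn.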

Additional observations from a re-analysis of the deposited data

How the results depend on the processing

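The count of 4385 genes called ran from 2648 to 3934 when any 1 of the 8 libraries was left out, with 1014 to 1555 higher and 1634 to 2400 lower. The low end came from shM3_WT replicate 2, followed by shM3_WT replicate 1 (2746), and a fit with 1 library left in a group assumes that it varies like the other groups. A limit of 2-fold left 774 genes, 178 higher and 596 lower, by its own construction. Equal medians gave 2614 higher against 1726 as deposited. The labels do not say that replicate numbers pair the libraries. The deviations of same-numbered libraries correlated between -0.031 and 0.037. Such values show little shared deviation, but they cannot tell whether same-numbered libraries were prepared together. With a replicate block 4099 genes were called, 1615 higher and 2484 lower. The counts of 3117 (B5 and shM3_WT fitted alone), 3586 (a filter of 5 FPKM), 3865 (any gene with 2 or more values above 0), 4305 and 4393 (pseudocounts of 0.1 and 5) were within 1.5 times the main count.

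Of the 146 genes named, 134 were called, and 125 of these kept their call and direction in all 16 settings other than the limit of 2-fold. Many of the named genes were picked for a small adjusted p or a large difference in the main fit. Their stability therefore does not stand for that of all genes called. A change of sign was seen in 5 named genes near 0, none of them called, and its cause was not tested. The log2 differences of TYMS, E2F1 and IFITM2 were 0.031, 0.067 and 0.097 with TMM factors and 0.047, 0.082 and 0.11 with equal medians, and TRIM25 was at -0.0017 with a pseudocount of 5. With libraries left out, TYMS ranged from -0.17 to 0.0091, E2F1 from -0.13 to 0.047, CHAC1 from -0.036 to 0.13, IFITM2 from -0.22 to 0.20 and TRIM25 from -0.40 to 0.40. FPKM keeps no fragment counts, so for genes near 1 FPKM the counting error is unknown.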

Other observations

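Over all genes tested 11.8% were called higher and 18.2% lower, and the counts here are to be read beside these shares. Among 22 apoptosis regulators 5 were called higher and 8 lower. BCL2A1, a survival protein of the BCL2 family, was listed at 0 in both B5 libraries and stood at 7.30 and 8.69 FPKM in shM3_WT (adjusted p = 0.00016 in limma). The death ligand gene TNFSF10 (TRAIL), which interferon also induces, stood at 44.2 and 54.2 FPKM in B5 and 12.8 and 10.7 in shM3_WT, and the death-promoting genes BMF at 8.77 and 9.60 FPKM in B5 and 1.37 and 0.844 in shM3_WT and BBC3 at 12.5 and 11.2 FPKM in B5 and 4.32 and 3.46 in shM3_WT. Of 21 p53 targets 6 were called lower and none higher (5 and 1 with TMM factors), and 15 were not called. The median of the list was -0.0007, and 0.079 with TMM factors. Those called lower included BBC3, SESN2 (6.62 and 7.05 FPKM in B5 and 3.72 and 3.62 in shM3_WT) and TP53INP1 (3.07 and 3.83 FPKM in B5 and 1.23 and 1.24 in shM3_WT). Of 13 CDK inhibitors and G1 cyclins 3 were called lower and 1 higher, with CDKN1C at 8.66 and 7.99 FPKM in B5 and 3.82 and 3.69 in shM3_WT and CDK6 at 8.08 and 10.6 FPKM in B5 and 4.40 and 4.16 in shM3_WT. Of 20 YAP and TEAD targets 7 were called higher and 2 lower, but 2 and 3 were higher without shM3_WT replicates 1 and 2.

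Of 22 genes of NRF2, glutathione and iron 6 were called higher and 7 lower, with the steroid-reducing enzyme AKR1C3 at 89.4 and 81.99 FPKM in B5 and 13.5 and 15.8 in shM3_WT and the transferrin receptor gene TFRC at 32.03 and 37.5 FPKM in B5 and 82.1 and 68.9 in shM3_WT. Of 34 glycolysis and hypoxia genes 8 were called higher (5 without shM3_WT replicate 2) and 7 lower (4 without shM3_WT replicate 1), with the glucose carrier gene SLC2A3 at 15.7 and 18.98 FPKM in B5 and 6.61 and 6.40 in shM3_WT and PFKFB3 at 14.5 and 15.2 FPKM in B5 and 25.8 and 25.5 in shM3_WT. The ATF4 and unfolded protein genes had 6 of 28 called higher and 5 lower (2 without shM3_WT replicate 2), with the amino acid carrier gene SLC7A5 at 55.4 and 58.3 FPKM in B5 and 114 and 112 in shM3_WT and PSAT1 at 30.3 and 30.7 FPKM in B5 and 47.4 and 48.1 in shM3_WT. The metallothionein gene MT2A stood at 1345 and 903 FPKM in B5 and 2833 and 2751 in shM3_WT, and 3 of 5 such genes were called higher and none lower (3 and 1 without B5 replicate 2). In fatty acid synthesis 4 of 14 were called lower and 1 higher as deposited, and 3 and 4 with TMM factors. Of 14 EMT regulators and keratins 3 were called higher and 3 lower, with KRT81 at 4.81 and 6.06 FPKM in B5 and 18.9 and 16.7 in shM3_WT and KRT17 at 9.80 and 10.8 FPKM in B5 and 1.12 and 1.79 in shM3_WT. Of 5 IGF-binding protein genes 2 were called lower and 1 higher, with IGFBP7 at 679 and 687 FPKM in B5 and 274 and 295 in shM3_WT and IGFBP1 at 23.1 and 24.5 FPKM in B5 and 37.5 and 33.6 in shM3_WT. Of 17 histone genes 2 were called higher and 3 lower (1 lower without shM3_WT replicate 1), with H2AX at 85.1 and 75.8 FPKM in B5 and 133 and 129.8 in shM3_WT. Of 15 transcripts of the mitochondrial genome 3 were called lower and none higher, against 11 lower and none higher without B5 replicate 2 and 3 lower and 3 higher without B5 replicate 1. In the main fit, the shares called lower among mitochondrial transcripts, histone genes and ATF4 and unfolded protein genes were near the 18.2% of all genes. MT-RNR1 stood at 594 and 542 FPKM in B5 and 332 and 336 in shM3_WT. Of 11 m6A erasers and readers 1 was called higher, YTHDF1 (25.3 and 23.2 FPKM in B5 and 30.1 and 29.8 in shM3_WT), and 1 lower, YTHDC1 (24.3 and 32.4 FPKM in B5 and 21.4 and 18.7 in shM3_WT). With TMM factors 2 were higher and none lower, and both calls were lost without shM3_WT replicate 2 (adjusted p = 0.0915 for YTHDF1 and 0.185 for YTHDC1).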
